A study of Mus musculus with 6 samples.

Results

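The leukotriene and prostaglandin genes described here are 10 genes of eicosanoid synthesis and signaling, each taken as the row whose gene name equals *Alox5*, *Alox5ap*, *Lta4h*, *Ltc4s*, *Ltb4r1*, *Cysltr1*, *Ptgs1*, *Ptgs2*, *Ptges* or *Hpgds*. They are 10 of 23424 genes with a row, each has exactly 1 row, and all 10 are among the 14630 protein-coding genes that had at least 10 counts and were tested. The data are bulk RNA-seq of tumor-associated macrophages (TAMs) sorted by their level of F4/80, a macrophage surface protein encoded by *Adgre1*. F4/80high and F4/80low TAMs were gated as live CD45+CD11b+ cells (and, by the study's methods, Lin-) from intradermal tumors of YUMM1.7, a mouse melanoma cell line. There were 3 libraries of each subset, made from poly-A RNA in 3 independent experiments on 10 pooled tumors each, and libraries with the same replicate number in both subsets were treated as pairs. All mice were WT females of the strain C57Bl/6J, 8 weeks old at tumor induction, untreated, with tumors taken at day 21. Each library is therefore an average over pooled tumors, and by the labels the subsets differ in the F4/80 gate.

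Eicosanoids are lipid mediators made from arachidonic acid, which phospholipases release from membranes. In the lipoxygenase branch, ALOX5 with its partner protein ALOX5AP makes leukotriene A4, from which LTA4H makes leukotriene B4, an attractant of neutrophils and other myeloid cells, and LTC4S makes the cysteinyl leukotrienes. In the cyclooxygenase branch, PTGS1 and PTGS2 make prostaglandin H2, which PTGES turns into prostaglandin E2 and HPGDS into prostaglandin D2. Macrophages are known producers of both classes, and prostaglandin E2 is known for dampening immune responses in tumors.

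Total counts ran from 16045281 to 43604373 per library, and both libraries of replicate 3, which the study draws as a second batch, were the smallest. Replicate 3 also differed in composition. Its 3 most counted genes held 17.1% (F4/80high) and 16.9% (F4/80low) of counts, against 2.20% to 3.89% in the other libraries. Protein-coding genes held 89.2% and 89.9%, against 97.2% to 97.9%. The TMM scaling factors of library size were 0.646 and 0.601, against 1.21 to 1.34. Values are given as CPM, the counts per 1000000 counts of the TMM-normalized library size, and as CPM per kb of the deposited gene length where genes are compared with each other. Log2 fold changes are F4/80high over F4/80low from edgeR's quasi-likelihood test with batch as a term, with Benjamini-Hochberg adjustment over the 14630 genes and a call at an adjusted p under 0.05 with an absolute log2 fold change above 1. This fit called 0 genes in all, with a lowest adjusted p of 0.434, while 1111 genes had an unadjusted p under 0.05. The batch term does not model the replicate pairs. When the replicate number, which does, replaced batch as a block, edgeR called 76 genes, and DESeq2 with batch called 151. *Adgre1* measured 273, 539.6 and 361 CPM in F4/80high replicates 1, 2 and 3 against 243, 327 and 184 CPM in the F4/80low replicates of the same numbers, higher in F4/80high in all 3 pairs, although the subsets overlapped.

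The largest difference among the 10 genes was in *Hpgds*, whose mean level was 4.71-fold higher in F4/80high TAMs (3.75- to 9.07-fold without 1 library at a time, the latter without F4/80low replicate 2). *Ltb4r1*, the receptor for leukotriene B4, was 2.80-fold lower by its means. Without 1 library at a time this ran from 1.98-fold (without F4/80high replicate 3) to 4.46-fold (without F4/80high replicate 1). *Alox5* was 1.99-fold lower, or 1.60- to 2.69-fold without 1 library at a time. No gene of the 10 was called by edgeR with batch (0% of all genes tested were called). With the replicate block, edgeR called *Hpgds* and *Ltb4r1*, 2 of 10 beside a background of 0.519%, and DESeq2 with batch called these and *Alox5*, 3 of 10 beside 1.03%. DESeq2 with the block called the same 3, beside 2.44%. An unadjusted p under 0.05 was reached by 5 of 10 genes, beside 7.59% of all genes. These were *Hpgds* on the side of F4/80high TAMs (3.27% of all genes) and *Ltb4r1*, *Alox5*, *Lta4h* and *Alox5ap* on the side of F4/80low TAMs (4.33% of all genes). With the block, 7 of 10 genes reached an unadjusted p under 0.05, beside 9.92%. Within the replicate pairs, 8 of 10 genes kept one direction, beside 31.9% of all genes, with 3 higher in F4/80high (16.0%) and 5 lower (15.9%). The median log2 fold change of the 10 genes was -0.34, beside 0.01 over all genes tested.

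**Figure D1:**
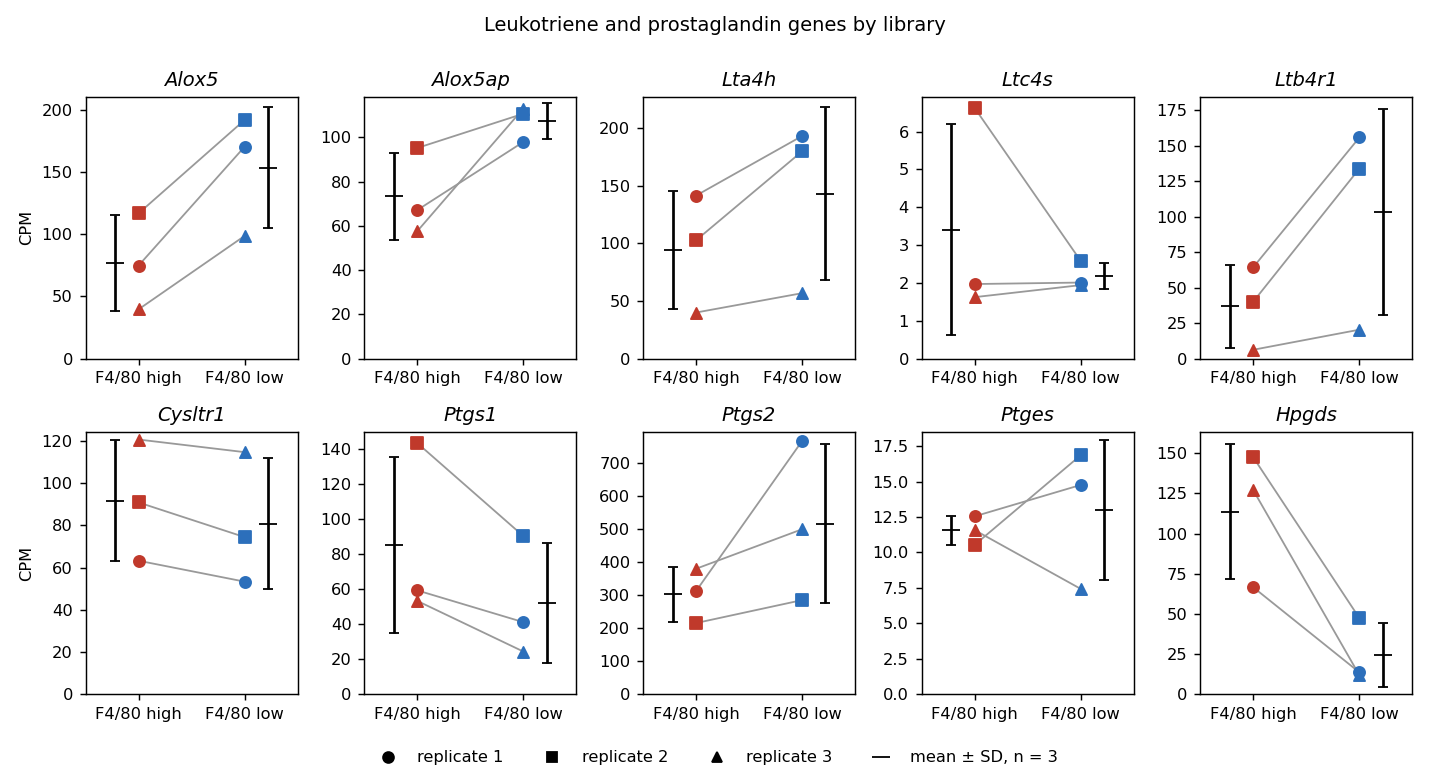
CPM of the 10 genes in each library, with the F4/80high libraries in red and the F4/80low libraries in blue, marker shapes for replicate numbers, grey lines joining pairs, and black bars for the mean ± SD of 3 libraries. *Hpgds* is higher in every F4/80high library than in any F4/80low library, and all 3 lines of *Alox5*, *Alox5ap*, *Lta4h*, *Ltb4r1* and *Ptgs2* go up toward F4/80low.

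The upstream sequences of the 3 genes with the lowest unadjusted p are shown because *Ltb4r1* and *Alox5* were both lower in F4/80high TAMs while *Hpgds* was higher. They were taken from a table of RefSeq promoters on GRCm38.p6, in which 8 of the 10 genes were matched (not *Alox5ap* or *Cysltr1*). Each is written 5′ to 3′ on the gene's own strand and ends at the start of the gene. For *Hpgds* the entry reaches 178 bases into the gene as GENCODE M21 draws it, and these bases are left out, so that 72 remain. Capitals mark matches on either strand to 1 of 4 motifs that share no bases here. GGGCGG is the GC box, GAGGAA a core of sites of PU.1 and other ETS factors, and TATAAA the TATA box. TTGCNNCAA is a pattern of letters to which no factor is assigned here.
Ltb4r1, chr14:55765712-55765961, plus strand: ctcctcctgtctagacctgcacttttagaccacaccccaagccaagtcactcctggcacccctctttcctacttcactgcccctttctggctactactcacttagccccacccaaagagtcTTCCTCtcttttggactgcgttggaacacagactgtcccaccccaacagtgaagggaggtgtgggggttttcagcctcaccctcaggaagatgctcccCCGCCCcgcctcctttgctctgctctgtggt
Alox5, chr6:116461179-116461428, minus strand: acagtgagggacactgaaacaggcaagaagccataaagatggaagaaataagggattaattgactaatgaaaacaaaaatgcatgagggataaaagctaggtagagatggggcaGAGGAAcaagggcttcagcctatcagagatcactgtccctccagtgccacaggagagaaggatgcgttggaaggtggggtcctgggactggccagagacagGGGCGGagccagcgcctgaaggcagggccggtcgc
Hpgds, chr6:65144909-65144980, minus strand: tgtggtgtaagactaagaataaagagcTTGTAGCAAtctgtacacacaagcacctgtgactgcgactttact
*Ltb4r1* and *Alox5* each held 1 GC box and 1 GAGGAA in these windows. The shorter *Hpgds* stretch held 1 TTGCNNCAA, and the *Hpgds* entry also held 1 GAGGAA, within the 178 bases left out. Over the full 250 bases upstream of the RefSeq start, GAGGAA was found in 7 of the 8 entries, those of *Ltb4r1*, *Alox5* and *Hpgds* included, GGGCGG in 4, TTGCNNCAA in 1 and TATAAA in 0. That start lies 26566 bases inside the GENCODE M21 gene for *Ptges* and 84 bases inside it for *Ltc4s*. With *Hpgds*, these entries thus add bases within genes to the counts. The shares among all 32851 promoters of the same length were 23.3%, 32.7%, 1.74% and 12.4%, in that order. GC content was 56.8% upstream of *Ltb4r1* and 52.8% upstream of *Alox5*, beside a median of 52.4% over all promoters. A match is a description of the letters only.

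*Alox5* encodes arachidonate 5-lipoxygenase, the enzyme that starts leukotriene synthesis, and lies at chr6:116410077-116461178 on the minus strand. It measured 74.9, 117 and 39.6 CPM in F4/80high replicates 1, 2 and 3 against 171, 192 and 98.8 CPM in F4/80low replicates 1, 2 and 3. F4/80low was higher in every pair, but the highest F4/80high library lay above the lowest F4/80low library. The means were 77.1 ± 38.7 and 154 ± 48.9 CPM (SD, n = 3 each), with a log2 fold change of -1.05 ± 0.25 (SE, edgeR adjusted p = 0.439). The replicate block gave -1.07 (edgeR adjusted p = 0.0715), and DESeq2 with batch called it (adjusted p = 0.0249). Replicate 3 held the lowest value of each subset, and the batch term of the edgeR fit was -1.07 on the log2 scale for batch 2 over batch 1 (adjusted p = 0.0117). Such a batch term passed for 42.6% of all genes.

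*Alox5ap*, which encodes the membrane protein that presents arachidonic acid to ALOX5, lies at chr5:149264767-149288153 on the plus strand. Its levels were 67.1, 95.2 and 57.6 CPM in F4/80high against 97.9, 110.7 and 113 CPM in F4/80low, by replicate number. The subsets did not overlap, which was so for 2 of the 10 genes (5.22% of all genes), *Alox5ap* with the higher values in F4/80low (2.91%) and *Hpgds* with the higher values in F4/80high (2.30%). The gap was small, from 95.2 to 97.9 CPM. The log2 fold change came to -0.56 ± 0.25 (SE, edgeR adjusted p = 0.652), and the block left it without a call (edgeR adjusted p = 0.416). An antisense gene, *Gm19719*, overlaps 189 of its exon bases and had at most 37 counts in any library.

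*Lta4h*, the hydrolase that makes leukotriene B4, lies at chr10:93453411-93484875 on the plus strand. It measured 141, 103 and 39.9 CPM in F4/80high against 193, 179.9 and 56.8 CPM in F4/80low libraries. F4/80low was higher within each pair, by 1.37-, 1.75- and 1.42-fold, yet the subsets overlapped widely because replicate 3 was lowest in both. The means of 94.7 ± 51.2 and 143 ± 75.3 CPM (SD, n = 3 each) gave a log2 fold change of -0.58 ± 0.22 (SE, edgeR adjusted p = 0.607). The batch term was larger than the difference between subsets, at -1.66 on the log2 scale (edgeR adjusted p = 8.49e-04).

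*Ltc4s*, the synthase of the cysteinyl branch, lies at chr11:50236461-50238616 on the minus strand and had few counts, 15 to 341 per library. Its levels were 1.97, 6.63 and 1.62 CPM in F4/80high against 2.01, 2.58 and 1.94 CPM in F4/80low. F4/80high replicate 2 stood above the other 5 libraries, which lay between 1.62 and 2.58 CPM. The log2 fold change of 0.56 ± 0.65 (SE, edgeR adjusted p = 0.866) turned to -0.27 without that library. *Gm26542*, an antisense gene with 4 to 38 counts per library, overlaps 268 exon bases of *Ltc4s*, and since the use of strand in counting is not given in the sources used here, reads of both cannot be told apart.

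Of the 4 genes of leukotriene synthesis, 3 had an unadjusted p under 0.05, all lower in F4/80high TAMs (4.33% of all genes). By edgeR with batch 0 were called, as were 0% of all genes. In these bulk libraries, fewer cells of one type and less RNA per cell cannot be told apart.

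*Ltb4r1* encodes BLT1, the high-affinity leukotriene B4 receptor of neutrophils, eosinophils and other leukocytes, and lies at chr14:55765962-55768494 on the plus strand. It measured 64.4, 40.2 and 6.17 CPM in F4/80high against 156, 134 and 20.3 CPM in F4/80low libraries 1, 2 and 3. Each F4/80low library was 2.42- to 3.33-fold above its F4/80high partner, while replicate 3 of both subsets lay below all others. The means were 36.9 ± 29.3 and 103 ± 72.7 CPM (SD, n = 3 each), and the log2 fold change was -1.54 ± 0.26 (SE, unadjusted p = 1.95e-04, edgeR adjusted p = 0.434). By unadjusted p it ranked 4 of 14630 genes. The replicate block called it at -1.57 ± 0.22 (SE, edgeR adjusted p = 0.0302), and DESeq2 with batch at -1.54 (adjusted p = 1.46e-04). With the block, the call was lost without replicate 2 of both subsets (edgeR adjusted p = 0.0514) and without replicate 3 (0.0909), but not without replicate 1 (5.82e-04). Each such fit held only 2 pairs, and the one without replicate 1 called 397 of 14630 genes, against 76 with all 3 pairs. The batch term of *Ltb4r1* was -2.95 on the log2 scale (edgeR adjusted p = 1.09e-04).

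*Cysltr1*, a receptor for cysteinyl leukotrienes, lies at chrX:106574346-106603679 on the minus strand. It measured 63.2, 90.9 and 121 CPM in F4/80high against 53.3, 74.4 and 115 CPM in F4/80low. F4/80high was above F4/80low within each pair by 1.05- to 1.22-fold, and the subsets overlapped. The log2 fold change came to 0.21 ± 0.25 (SE, edgeR adjusted p = 0.870), and it was -0.01 without F4/80high replicate 2. Replicate 3 was the highest for *Cysltr1* and the lowest for *Ltb4r1* in both subsets. As a ratio of CPM per kb, *Ltb4r1* over *Cysltr1* was 3.76, 1.63 and 0.188 in F4/80high against 10.8, 6.63 and 0.653 in F4/80low, higher in F4/80low within each pair and under 1 only in replicate 3.

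*Ptgs1* encodes the constitutive cyclooxygenase COX-1 and lies at chr2:36230426-36252272 on the plus strand. Its levels were 59.1, 143 and 53.1 CPM in F4/80high against 41.0, 90.2 and 24.2 CPM in F4/80low. F4/80high was 1.44-, 1.59- and 2.19-fold above F4/80low in replicate pairs 1, 2 and 3, whereas the pooled subsets overlapped. The log2 fold change came to 0.79 ± 0.39 (SE, edgeR adjusted p = 0.692), and 0.77 ± 0.22 with the block (SE, edgeR adjusted p = 0.233). *Gm43621*, on the opposite strand, overlaps 148 of its exon bases and had at most 7 counts in any library.

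*Ptgs2* encodes the inducible cyclooxygenase COX-2 and lies at chr1:150100031-150108227 on the plus strand. It measured 311, 215 and 379 CPM in F4/80high against 766, 284 and 499 CPM in F4/80low. Each F4/80low library was above its partner, by 2.46-fold in pair 1 and by 1.32-fold in pairs 2 and 3. The means were 302 ± 82.7 and 517 ± 242 CPM (SD, n = 3 each), with a log2 fold change of -0.80 ± 0.37 (SE, edgeR adjusted p = 0.681). Without F4/80low replicate 1 the log2 fold change was -0.23, and the block gave -0.70 (edgeR adjusted p = 0.318). The summed level of 12 immediate early genes, a list of genes induced within minutes of stimulation or handling, was likewise lower in F4/80high in all 3 pairs, at 0.814, 0.747 and 0.845 of its F4/80low partner. The list was split. In it 7 genes were lower, 3 of them with an unadjusted p under 0.05 (4.33% of all genes on that side). The other 5 genes, *Fos* and *Jun* among them, had positive log2 fold changes. The part of these 12 genes in the *Ptgs2* values was not tested.

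*Ptges*, the inducible microsomal prostaglandin E synthase, lies at chr2:30889471-30929863 on the minus strand. It measured 12.5, 10.5 and 11.6 CPM in F4/80high against 14.8, 16.9 and 7.42 CPM in F4/80low. All F4/80high values fell inside the range of the F4/80low values, and the direction differed between pairs. The log2 fold change came to -0.11 ± 0.34 (SE, edgeR adjusted p = 0.958).

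*Hpgds*, the hematopoietic prostaglandin D synthase known from mast cells, T helper cells and macrophages, lies at chr6:65117293-65144908 on the minus strand. It measured 66.4, 147 and 127 CPM in F4/80high against 13.4, 47.2 and 11.6 CPM in F4/80low. The lowest F4/80high library was above the highest F4/80low library, and the pairs differed by 4.95-, 3.12- and 10.9-fold. The means were 114 ± 42.1 and 24.1 ± 20.1 CPM (SD, n = 3 each), with a log2 fold change of 2.33 ± 0.55 (SE, unadjusted p = 0.00211, edgeR adjusted p = 0.439). The block called it at 2.43 ± 0.34 (SE, edgeR adjusted p = 0.0297), and DESeq2 with batch at 2.35 (adjusted p = 0.00288). With the block it was also called without each replicate number of both subsets in turn (edgeR adjusted p = 4.03e-07 to 0.0381). Each such fit held only 2 pairs. The lowest p came without replicate 1, where 397 of 14630 genes were called, against 76 with all 3 pairs. Leaving out 1 library at a time in edgeR with batch gave log2 fold changes of 1.82 to 3.18 for *Hpgds*, the highest without F4/80low replicate 2. The study lists *Hpgds* among the genes that differ in these same libraries, so its direction is not independent evidence.

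**Figure D2:**
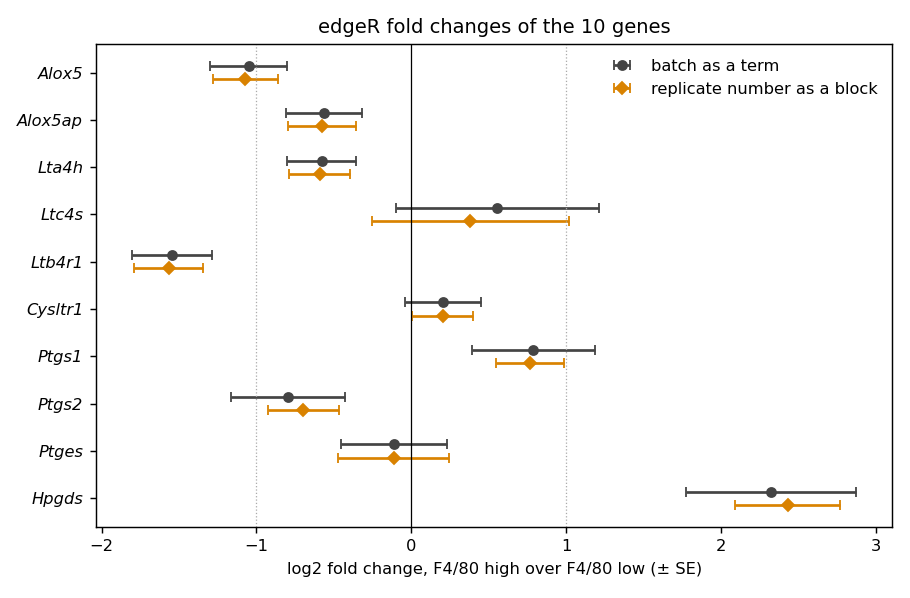
Log2 fold change of each gene, F4/80high over F4/80low, from edgeR with batch as a term (black) and with the replicate number as a block (orange). Bars are ± 1 SE and dotted lines mark a log2 fold change of 1 in either direction; *Hpgds* at 2.33, *Ltb4r1* at -1.54 and *Alox5* at -1.05 lie beyond them in both fits.

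The balance between enzymes was read within each library as a ratio of CPM per kb. *Hpgds* over *Ptges* was 5.80, 15.3 and 12.0 in F4/80high against 0.996, 3.07 and 1.72 in F4/80low, so that every F4/80high ratio was above every F4/80low ratio. *Ptgs2* over *Ptgs1* was 4.47, 1.27 and 6.06 in F4/80high against 15.9, 2.67 and 17.5 in F4/80low, higher in F4/80low in each pair, with replicate 2 the lowest of both subsets. The ratio of the prostaglandin D synthase to 5-lipoxygenase, *Hpgds* over *Alox5*, was 1.02, 1.44 and 3.67 in F4/80high against 0.0900, 0.281 and 0.135 in F4/80low. Its genes went in opposite directions, so this ratio restates their fold changes. *Alox5* over *Alox15*, another lipoxygenase, was 0.129, 0.399 and 0.381 in F4/80high against 0.141, 0.128 and 0.437 in F4/80low, and its direction differed between pairs. *Ltc4s* over *Lta4h* was 0.0391, 0.181 and 0.114 against 0.0292, 0.0403 and 0.0960, higher in F4/80high in each pair, with few *Ltc4s* counts. These ratios carry no test of their own.

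**Figure D3:**
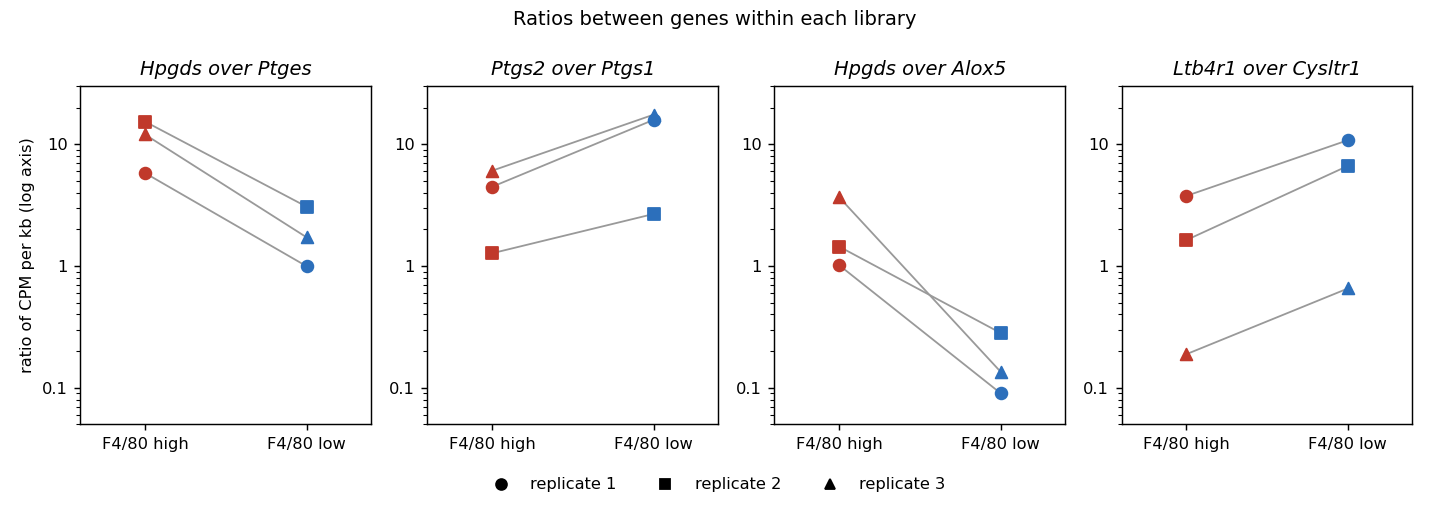
Ratios of CPM per kb between pairs of genes within each library on log axes, with lines joining replicate pairs. *Hpgds* over *Ptges* and *Hpgds* over *Alox5* are higher in all 3 F4/80high libraries, and *Ptgs2* over *Ptgs1* and *Ltb4r1* over *Cysltr1* are higher in F4/80low within each pair.

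Per kb, *Ptgs2* had the highest level of the 10 genes in both subsets, at 65.9 CPM per kb in F4/80high against 113 in F4/80low. The F4/80high order then ran *Alox5ap* (51.6 CPM per kb), *Lta4h* (45.8), *Hpgds* (31.7), *Ltb4r1* (26.5), *Ptgs1* (21.9), *Alox5* (18.8), *Cysltr1* (17.8), *Ltc4s* (4.63) and *Ptges* (2.94). The only neighbors in that order whose libraries did not overlap were *Cysltr1* and *Ltc4s*. In F4/80low the order ran *Alox5ap* (75.5 CPM per kb), *Ltb4r1* (74.1), *Lta4h* (69.4), *Alox5* (37.5), *Cysltr1* (15.7), *Ptgs1* (13.3), *Hpgds* (6.72), *Ptges* (3.31) and *Ltc4s* (2.96), and the only neighbors without overlap were *Alox5* and *Cysltr1*. The deposited lengths of *Lta4h* (2066 bases), *Hpgds* (3586) and *Ltc4s* (736) are shorter than their merged exons in GENCODE M21 (6102, 6425 and 1014). This raises their levels per kb and the ratios to other genes but leaves the fold changes between subsets as they are. *Hpgds* stood at rank 4 in F4/80high by its deposited length and at rank 7 by its merged exons, and at rank 8 in F4/80low by both. By merged exons *Lta4h* stood at rank 8 in F4/80high and rank 5 in F4/80low.

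Around these 10 genes, 57 other genes of the pathway were listed by role, of which 49 had a row and 47 had enough counts to be tested. An unadjusted p under 0.05 was reached by 11 of 47, beside 7.59% of all genes. Of these 11, 4 were higher (3.27% of all genes) and 7 lower in F4/80high (4.33%). The median log2 fold change was -0.17, beside 0.01 over all genes tested. Called by edgeR with batch were 0 of 47, and the replicate block also gave 0, beside 0% and 0.519% of all genes. *Alox15*, the 12/15-lipoxygenase of mouse eosinophils and resident macrophages, measured 346, 175 and 62.1 CPM in F4/80high against 724, 899 and 135 CPM in F4/80low. Every F4/80low library was above its partner, and the log2 fold change came to -1.47 ± 0.30 (SE, edgeR adjusted p = 0.434), or -1.51 with the block (edgeR adjusted p = 0.0566), while DESeq2 with batch called it (adjusted p = 0.00110). *Alox12e*, an epidermal-type lipoxygenase, had a log2 fold change of -1.36 (edgeR adjusted p = 0.504). Both lipoxygenases with an unadjusted p under 0.05, of 5 tested, were thus lower in F4/80high, beside 4.33% of all genes.

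Among the 8 tested genes of leukotriene conversion, export and breakdown, 7 had negative log2 fold changes, beside a median of 0.01 over all genes tested. An unadjusted p under 0.05 was reached by 2 of the 8, on the side of F4/80low (4.33% of all genes). These were *Cyp4f18*, which breaks down leukotriene B4, at 246 ± 109.8 CPM in F4/80high against 522 ± 266 CPM in F4/80low (SD, n = 3 each; log2 fold change -0.97, edgeR adjusted p = 0.504), and *Ggt5*, which converts leukotriene C4 to D4 (log2 fold change -0.94, edgeR adjusted p = 0.629). *Cysltr2*, the other cysteinyl leukotriene receptor, went the opposite way at 1.51 (edgeR adjusted p = 0.639) and was a low gene, with 8 to 396 counts per library.

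In arachidonic acid release, *Pla2g15*, the lysosomal phospholipase A2, measured 126 ± 39.9 CPM in F4/80high against 65.4 ± 5.60 CPM in F4/80low (SD, n = 3 each). The subsets did not overlap for *Pla2g15* (2.30% of all genes on this side), and the log2 fold change was 0.93 (edgeR adjusted p = 0.503). *Mgll*, monoacylglycerol lipase, had a log2 fold change of -1.31 (edgeR adjusted p = 0.507). *Pla2g10*, a secreted phospholipase, had 0, 0 and 2 counts in F4/80high against 3, 15 and 13 in F4/80low, and was at least 4.21-fold lower in F4/80high when 3 counts per library are taken as the floor, or 1.45-fold without F4/80low replicate 3.

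Of 8 tested prostanoid synthases outside the 10 genes, 7 had positive log2 fold changes, beside a median of 0.01 over all genes tested. They included *Fam213b*, which makes prostaglandin F2 alpha, at 1.12 (edgeR adjusted p = 0.622), and *Cbr1*, a carbonyl reductase acting on prostaglandin E2, at 0.86 (edgeR adjusted p = 0.656). *Ptges3*, also known as the HSP90 co-chaperone p23, had the highest level per kb of this group and a log2 fold change of 0.22 (edgeR adjusted p = 0.825). The prostaglandin E2 receptor *Ptger4*, the prostanoid receptor with the highest level per kb, measured 70.3 ± 19.4 and 64.3 ± 20.7 CPM (SD, n = 3 each; log2 fold change 0.12, edgeR adjusted p = 0.932). *Ptger3*, another prostaglandin E2 receptor, had 2, 0 and 1 counts in F4/80high against 111, 24 and 3 in F4/80low, at least 8.11-fold lower in F4/80high by the same floor. This bound rested on F4/80low replicate 1, and was 3.05-fold without it. *Hpgd*, which inactivates prostaglandins, had the highest level per kb among transport and breakdown genes and a log2 fold change of -0.04 (edgeR adjusted p = 0.985).

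**Figure D4:**
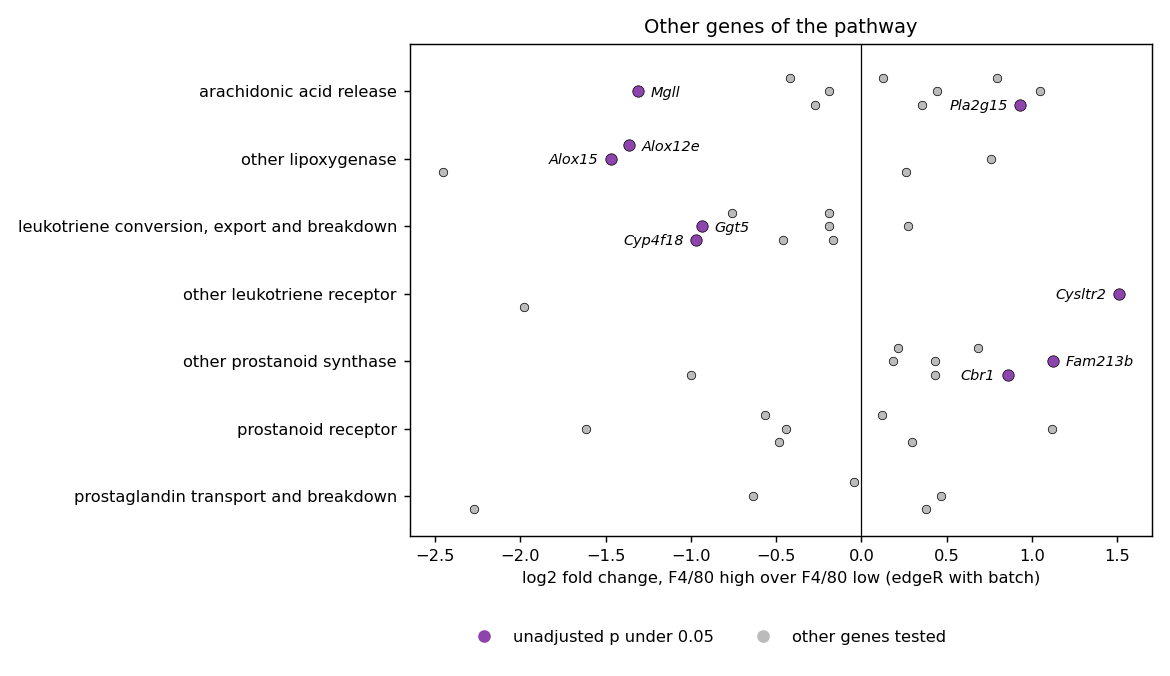
Log2 fold changes, F4/80high over F4/80low, of the other tested genes of the pathway from edgeR with batch, in rows by role, with genes of an unadjusted p under 0.05 named and in purple; points within a row are spread vertically for legibility. *Pla2g10* and *Ptger3*, at or under 3 counts in each F4/80high library, are left out. Of the named genes, *Alox15*, *Alox12e* and *Mgll* lie below -1.3, and *Cysltr2* lies at 1.51.

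Markers of other leukocytes moved with the subsets as well. The summed level of 9 eosinophil markers ran from 94.3 to 187 CPM in F4/80high and from 271 to 622 CPM in F4/80low. In this list 9 of 9 log2 fold changes were negative, 6 with an unadjusted p under 0.05 (4.33% of all genes on that side). For 10 neutrophil markers the sums were 754 to 2148 CPM and 1536 to 4911 CPM, and the sum was lower in F4/80high in all 3 pairs. Here 10 of 10 log2 fold changes were negative, 8 with an unadjusted p under 0.05 (4.33% of all genes on that side). Both lists thus lay on the side of *Alox5*, *Ltb4r1* and *Alox15*. On the same side lay the mast cell and basophil, dendritic cell and fibroblast sums and 6 of 7 monocyte markers, given below. The part of any of these lists in those results was not tested. The 11 mast cell and basophil markers summed to 41.7 to 345 CPM in F4/80high against 111 to 896 CPM in F4/80low. Each F4/80high library was below its partner, and 11 of 11 log2 fold changes were negative, 1 with an unadjusted p under 0.05 (4.33% of all genes on that side). The part of this list in the *Hpgds* result was not tested. The 9 macrophage markers summed to 4585 to 13789 CPM in F4/80high against 2481 to 6618 CPM in F4/80low, higher in F4/80high in each pair by 1.57- to 2.08-fold, on the side of *Hpgds* and *Ptgs1*, with 7 of 9 log2 fold changes positive. An unadjusted p under 0.05 was reached by 3 of the 9 (3.27% of all genes on this side), *C1qa*, *C1qb* and *C1qc*, genes of the complement component C1q. Without these 3 genes, left out after their values were seen, the sum was 2455 CPM in F4/80high against 3001 CPM in F4/80low in pair 1, and was 1.65- and 1.29-fold higher in F4/80high in pairs 2 and 3. The part of these markers in the *Hpgds* and *Ptgs1* results was not tested. Of 7 monocyte markers 6 had negative log2 fold changes, 5 of them with an unadjusted p under 0.05 (4.33% of all genes on that side). In pairs 1 and 3 their sum was lower in F4/80high, and in pair 2 it was 1.04-fold higher, where *F13a1* alone turned it (859 CPM in F4/80high against 2389 CPM in F4/80low without that gene). The dendritic cell markers were lower in all 3 pairs, and fibroblast markers were lower in all 3 pairs. T and NK cell and B cell markers were higher in F4/80high in pairs 1 and 3 and lower in pair 2, and endothelial markers summed to at most 86.7 CPM. All 7 tested T and NK cell markers had positive log2 fold changes, 1 with an unadjusted p under 0.05 (3.27% of all genes on this side). Their part in the *Hpgds* result was not tested either. Melanoma markers summed to at most 3.08 CPM, with *Mlana* at or under 3 counts in all 6 libraries and no row for *Tyr*, *Tyrp1* or *Dct*.

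**Figure D5:**
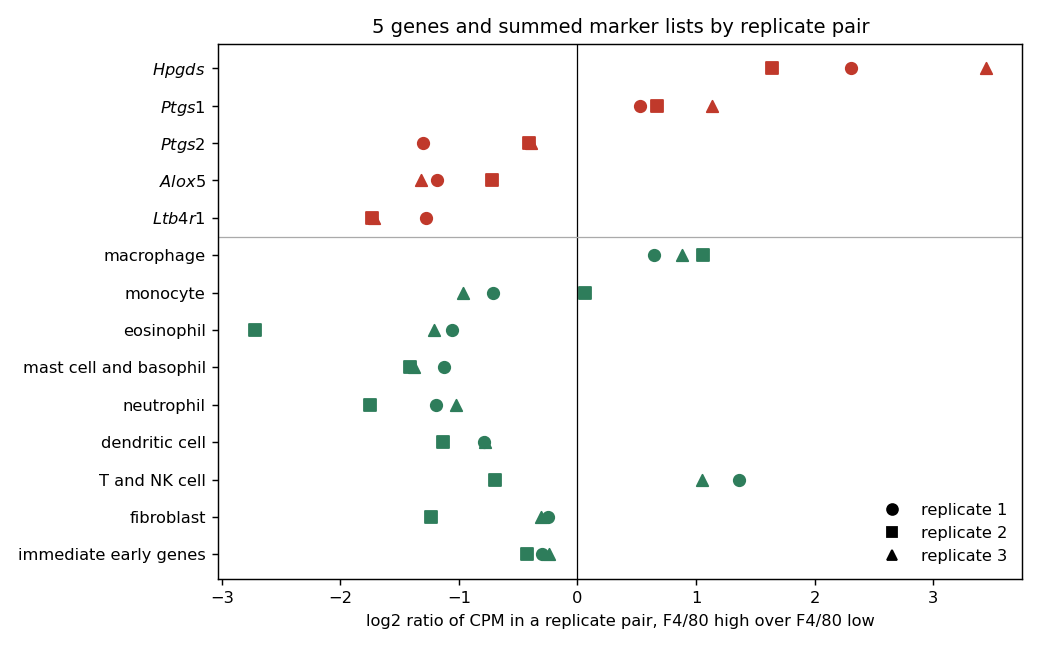
Log2 ratio of CPM, F4/80high over F4/80low, within each replicate pair for 5 genes (red) and for summed marker lists (green), with marker shapes for replicate numbers. *Hpgds* and the macrophage sum lie above 0 in all 3 pairs, the macrophage sum in pair 1 only with its 3 C1q genes, while *Ltb4r1*, *Alox5*, *Ptgs2* and the eosinophil, neutrophil and mast cell sums lie below 0 in all 3.

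The genes whose profile over the 6 libraries was most like that of the 3 genes with the lowest unadjusted p were sought among 8811 genes, by the root mean square difference of log2 CPM centred on each gene's mean. For *Alox5*, with a spread of 0.762 around its own mean, the nearest were *Mgst1* (0.180), *Smpdl3a* (0.204) and *Rab3d* (0.263). *Ltb4r1* had a spread of 1.60 and lay nearest to *Serpinb1a* (0.360), *Suox* (0.381) and *Gm14548* (0.398). *Hpgds*, with a spread of 1.43, lay nearest to *Zdhhc14* (0.416), *Fcrls* (0.419) and *Blnk* (0.424).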

How the data were processed

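The authors deposited a table of raw read counts per gene for each library, with gene length and biotype and no normalization. The methods name the standard alignment pipeline of a sequencing center; aligner, counting tool, strand and annotation are not given in the sources used here. Every count column was used.

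Genes were matched by ID to GENCODE M21 (99.3% found), and protein-coding genes whose counts summed to at least 10 were kept (14630), as the study's methods do. The 10 genes and all gene lists were chosen with earlier results of these data known. Counts were fitted in R 4.3.3 with edgeR 4.0.16 (TMM, quasi-likelihood test, terms for batch and subset); DESeq2 1.42.0, which the authors used, was an alternative, as were the replicate number as a block, other scalings, filters and gene sets, and leaving out libraries. Batch follows the study's plot of its samples, with replicate 3 of both subsets as batch 2. The study names 3 independent experiments, and same-numbered libraries were taken as pairs. After subtraction of subset means these correlated at 0.745, 0.729 and 0.907 over 10067 genes. A batch shared by both subsets gives positive values by itself, and libraries of unlike number were not compared. These correlations therefore cannot decide whether the numbers are pairs. The steps were tested on simulated data, in which edgeR with batch made more false calls than its nominal rate, and the block and DESeq2 fits a larger share than edgeR with batch.

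Named genes are the 10 genes and, of the other pathway genes, those with an unadjusted p under 0.05 or called with the block or by DESeq2, and the one with the highest level per kb in each role. A gene is at the floor where no library of a subset exceeds 3 counts (3 counts are 0.0688 to 0.187 CPM of the total). The fold bounds given for such genes set 3 counts over the TMM-normalized library size, not over the total. No library was a copy of another. The p-values measure the spread between pooled-tumor libraries.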

Additional observations from a re-analysis of the deposited data

Results flagged for a closer look

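Reads were also counted on 2 transcripts beside *Ptgs2* that are not protein-coding, and each had more than 3 counts in all 6 libraries. They were outside the main fit and entered only an alternative edgeR fit on genes of all biotypes. *Ptgs2os*, at chr1:150074873-150099963 on the opposite strand, begins 68 bases upstream of the *Ptgs2* start and had 4, 45 and 9 counts in F4/80high replicates 1, 2 and 3 against 81, 52 and 14 in F4/80low. *Ptgs2os2*, at chr1:150159043-150164948 on the opposite strand and 59012 bases downstream of that start, had 244, 219 and 40 counts in F4/80high against 634, 418 and 48 in F4/80low. In CPM, both were lower in F4/80high than in F4/80low within every pair, with *Ptgs2os2* at 6.16, 4.26 and 4.33 CPM against 15.9, 10.3 and 5.48. The fit on all biotypes called 0 genes, and no p-values of these differences are given here.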

How the results depend on the processing

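With the replicate block, edgeR called 76 genes in all (34 higher, 42 lower in F4/80high), 2 of the 10 genes and 0 other pathway genes. DESeq2 called 151 (47 higher, 104 lower), 3 and 1 with batch, and 357 (132 higher, 225 lower), 3 and 2 with the replicate block, the last being *Alox15* and *Mgll*. Leaving out 1 library at a time gave 0 to 85 genes in all and 0 to 2 of the 10 genes; the highest counts came without F4/80high replicate 1, where *Hpgds* and *Ltb4r1* were called, and the other 5 libraries left out each gave 0 by edgeR. Alternatives chosen after seeing the data kept the replicate block and left out replicate 1, 2 or 3 of both subsets, with 397, 66 and 23 genes in all, 3, 1 and 1 of the 10 genes, and 4, 0 and 0 other pathway genes. The other scalings, filters, gene sets and thresholds, the fit of batch 1 alone and the fit with no batch term called 0 genes, the last with 253 at an unadjusted p under 0.05. Over 210 values of the 10 genes under alternatives, 204 kept their direction and 6 reversed. Leaving out 1 library at a time, the log2 fold change ran from -0.27 to 0.91 for *Ltc4s* and from -0.0099 to 0.33 for *Cysltr1*, both lowest without F4/80high replicate 2, and from -0.46 to 0.043 for *Ptges*, where it was 0.038 without F4/80high replicate 2 and highest without F4/80low replicate 2; *Ltc4s* (-0.17) and *Ptges* (0.15) reversed with the replicate block and without replicate 2. The cause of these changes was not tested. Scaling moved the median of all genes by under 0.1 on the log2 scale.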
